A study of Mus musculus with 19 samples.

Results

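The 6 transcripts described here are the mRNAs that the mouse mitochondrial genome encodes for respiratory complexes III, IV and V. They were taken by transcript identifier (ENSMUST00000082402 for mt-Co1, ENSMUST00000082405 for mt-Co2, ENSMUST00000082409 for mt-Co3, ENSMUST00000082407 for mt-Atp8, ENSMUST00000082408 for mt-Atp6 and ENSMUST00000082421 for mt-Cytb), and all 6 were among the 49932 transcripts that had at least 1 tag in any of 19 libraries. The libraries hold tags of FMRP, an RNA-binding protein, from hippocampal area CA1 of mice. In CLIP, a protein and the RNA bound to it are joined by ultraviolet light and purified together, and the RNA is sequenced as short tags. All 16 Cre-positive libraries came from mice of the genotype Camk2a-Cre x Fmr1 cTag, in which Cre, driven by the Camk2a promoter of forebrain excitatory neurons, switches on a tag on FMRP. Acute slices had received either AAV-ChR2, a viral vector for the light-gated channel channelrhodopsin-2 (called opto), or AAV-Control. There were 4 opto and 4 control libraries at 5 min after activation and the same numbers at 30 min, and 3 libraries titled noCre gave the background of the purification. Other labels of noCre give the same genotype and cell type as for the rest, with no time, and these libraries were placed by title and treatment. The age and sex of the mice, and whether replicates are single or pooled animals, are not given in the sources used here. The matched RNA levels were not analysed here. In tissue libraries of this kind, fewer Cre-positive cells, less of an RNA per cell and fewer crosslinks of FMRP per RNA cannot be told apart.

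Mitochondria keep a small circular genome of their own, which is transcribed as long precursors that are cut into ribosomal RNAs, transfer RNAs and a handful of mRNAs. All of these mRNAs encode membrane subunits of the respiratory chain or of the ATP synthase, and they are translated on ribosomes inside the organelle. Electrons pass through complex I and complex III to complex IV, which hands them to oxygen, and complex V uses the proton gradient this builds to make ATP, of which firing neurons use a great deal. FMRP is best known from polyribosomes in the cytoplasm, outside that compartment. The mitochondrial mRNAs of complex I serve below as the comparison list, with the mitochondrial ribosomal and transfer RNAs.

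In the RefSeq table of GRCm38.p6, whose mitochondrial chromosome (MT) is the one that mm10 names chrM, COX1 lies at MT 5328 to 6872 (1545 nt), COX2 at 7013 to 7696 (684 nt) and COX3 at 8607 to 9390 (784 nt). ATP8 lies at 7766 to 7969 (204 nt), ATP6 at 7927 to 8607 (681 nt) and CYTB at 14145 to 15288 (1144 nt). These genes have no introns, and the ATP8 and ATP6 frames lie on a shared mRNA. ATP8 and ATP6 share 43 nt, 21.1% of ATP8 and 6.31% of ATP6, and ATP6 and COX3 share 1 nt. A tag in a shared stretch cannot be assigned to 1 of the 2 neighbours by its place alone. No other transcript had the same counts as any of the 6 in every library.

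Library totals ran from 20456 to 341445 tags in the 16 Cre-positive libraries and from 34 to 5557 in noCre. The 37 transcripts of the mitochondrial genome took between 1.40% of all tags (95% Wilson interval 1.36 to 1.44%, control 5 min replicate 1, the deepest library) and 7.35% (7.003 to 7.72%, opto 30 min replicate 1, the shallowest). The second highest share was 4.13%, in opto 30 min replicate 4 and values are also given without opto 30 min replicate 1. Dixon's test, run on the shares of the 6 mRNAs and their sum in each group, marked a library in 0 of 28 cases. The 6 mRNAs made up 11.97% to 25.2% of the mitochondrial tags, with a median of 16.3%. The labels mark the files of the 5 min libraries as new and give the 30 min libraries no such mark. A difference between times and a difference between these 2 sets of files cannot be told apart. Intervals and limits cover counting error only.

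Complex IV, cytochrome c oxidase, takes its catalytic core from the mitochondrial genome, and mt-Co1 encodes the subunit that holds the site where oxygen is reduced. In replicates 1 to 4 of the 30 min controls, mt-Co1 had 199, 365, 317 and 467 tags, or 2439, 1896, 2339.9 and 2578 CPM (tags per 1000000 tags of library total). In the 30 min opto libraries it had 93, 41, 272 and 162 tags, or 4546, 1395, 2230.0 and 3883 CPM. Opto replicates 1 and 4 were above all 30 min controls and opto replicate 2 was below them all, so the groups overlapped. In the 5 min controls mt-Co1 had 365, 75, 143 and 374 tags, or 1069, 1867, 1312 and 1790.4 CPM, and in the 5 min opto libraries it had 340, 192, 194 and 206 tags, or 1324, 1954, 999 and 2435 CPM. The 4 control libraries at 5 min were all below the 4 at 30 min, whereas opto replicate 4 at 5 min was above 2 of the opto libraries at 30 min. Group means were 2313 ± 295 CPM in the 30 min controls, 3014 ± 1454 in 30 min opto, 1509.6 ± 383 in the 5 min controls and 1678 ± 642 in 5 min opto (SD, n = 4 each).

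mt-Co2 encodes the subunit that takes electrons from cytochrome c. It had 62, 77, 78 and 116 tags, or 759.9, 400.1, 576 and 640.5 CPM in the 30 min controls, and 31, 12, 68 and 38 tags, or 1515, 408, 558 and 911 CPM in the 30 min opto libraries. Opto replicates 1 and 4 were above all the controls, and replicates 2 and 3 were within their range. At 5 min it had 109, 24, 35 and 91 tags, or 319, 597, 321 and 436 CPM in the controls, and 90, 45, 53 and 29 tags, or 351, 458, 273 and 343 CPM in the opto libraries. The control and opto ranges at 5 min overlapped, and each overlapped the range of its own arm at 30 min. mt-Co3, the third core subunit, had 59, 79, 90 and 156 tags, or 723, 410.5, 664 and 861 CPM in the 30 min controls, and 19, 15, 74 and 54 tags, or 929, 510.3, 607 and 1294 CPM in 30 min opto. Here the highest library was opto replicate 4 and not replicate 1. At 5 min mt-Co3 had 109, 21, 37 and 84 tags, or 319, 523, 339 and 402 CPM in the controls, and 92, 37, 41 and 48 tags, or 358, 377, 211 and 567 CPM in the opto libraries. The lowest value of all 16 was in opto 5 min replicate 3, and both pairs of times overlapped.

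Complex V, the ATP synthase, takes 2 subunits of its membrane part from the mitochondrial genome, and their reading frames overlap. mt-Atp6 encodes the subunit through which protons pass. It had 56, 128, 155 and 168 tags, or 686, 665, 1144 and 928 CPM in the 30 min controls, and 34, 20, 77 and 51 tags, or 1662, 680.4, 631 and 1222 CPM in 30 min opto. At 5 min it had 111, 17, 41 and 105 tags, or 325, 423, 376 and 503 CPM in the controls, and 94, 54, 61 and 49 tags, or 366, 549.6, 314 and 579 CPM in opto. The highest of the 8 libraries at 5 min (579 CPM) was below the lowest of the 8 at 30 min (631), while opto and control overlapped at both times. mt-Atp8 encodes a small subunit beside it and is the shortest and most thinly covered of the 6. It had 24, 29, 31 and 39 tags, or 294, 151, 229 and 215 CPM in the 30 min controls, and 24, 3, 12 and 12 tags, or 1173, 102, 98.4 and 288 CPM in 30 min opto. Opto replicate 1 was far above the other 3 and above all the controls, with a share of 0.117% (95% Wilson interval 0.0789 to 0.175%), and opto replicate 2 rested on 3 tags (0.0102%, 0.00347 to 0.03%). At 5 min mt-Atp8 had 34, 7, 8 and 11 tags, or 99.6, 174, 73.4 and 52.7 CPM in the controls, and 31, 16, 19 and 6 tags, or 121, 163, 97.8 and 70.9 CPM in opto. All groups of mt-Atp8 overlapped in each comparison.

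Complex III, the cytochrome bc1 complex, has a single mitochondrially encoded subunit, cytochrome b, which holds its quinone sites and is encoded by mt-Cytb. mt-Cytb had 56, 122, 141 and 158 tags, or 686, 634, 1041 and 872 CPM in the 30 min controls, and 36, 19, 98 and 60 tags, or 1759.9, 646, 803 and 1438 CPM in 30 min opto. Opto replicates 1 and 4 were above all the controls and the other opto libraries were within their range. At 5 min it had 137, 27, 51 and 130 tags, or 401, 672, 468 and 622 CPM in the controls, and 121, 62, 72 and 66 tags, or 471, 631, 371 and 780.0 CPM in opto. The ranges of opto and control overlapped at 5 min, and those of the 2 times overlapped in both arms.

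**Figure D1:**
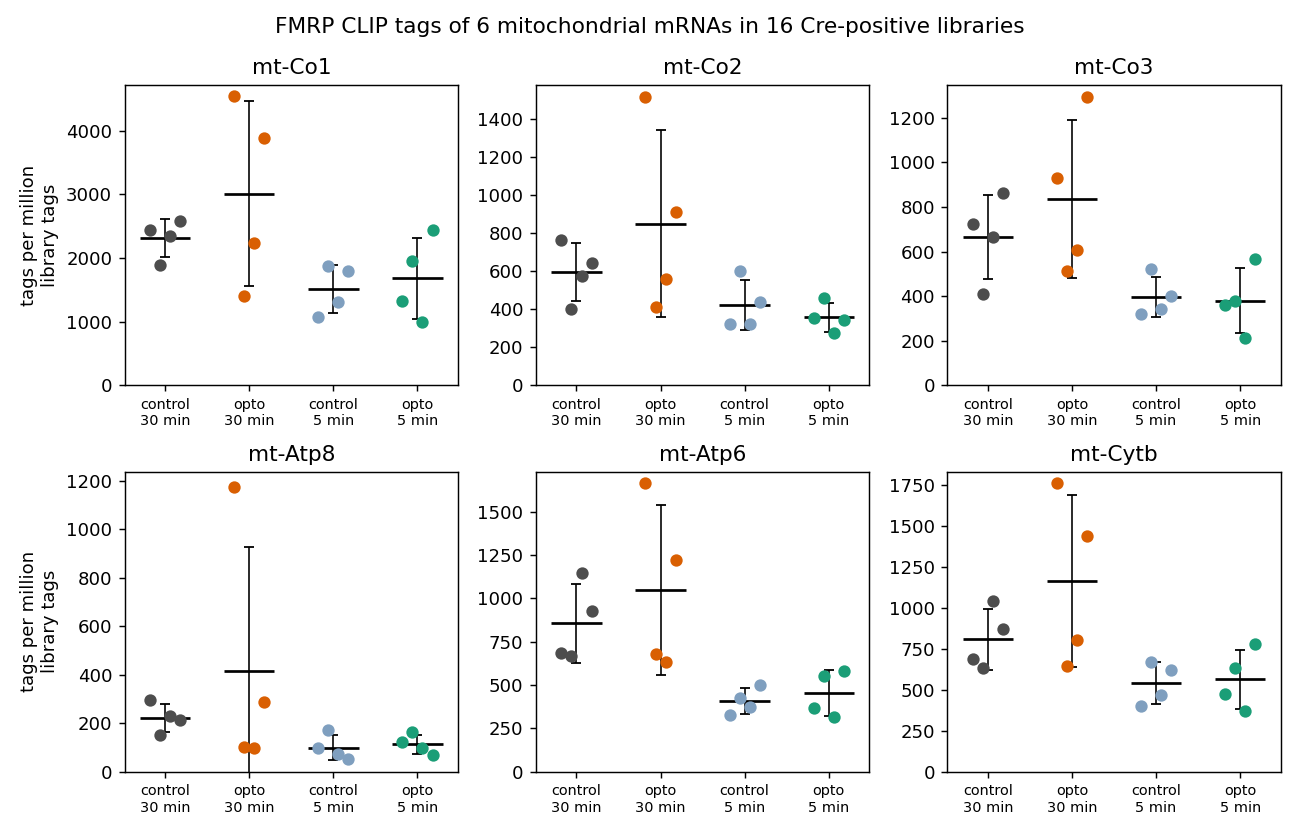
CPM (tags per 1000000 library tags, linear axes from 0, a scale for each panel) of the 6 mRNAs in the 16 Cre-positive libraries, with points for libraries in replicate order, a line for the group mean and bars for 1 SD (n = 4). The widest bars are in 30 min opto, where replicate 1 reached 4546 for mt-Co1 and 1173 for mt-Atp8, and for mt-Atp6 all 8 points at 5 min are below all 8 at 30 min.

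Summed over the 6 mRNAs, the share of all tags was 0.546% ± 0.0895 in the 30 min controls, 0.732% ± 0.364 in 30 min opto, 0.337% ± 0.0797 in the 5 min controls and 0.354% ± 0.113 in 5 min opto (SD, n = 4 each). The lowest share of a library was 0.227% (0.206 to 0.249%, opto 5 min replicate 3) and the highest 1.16% (1.02 to 1.31%, opto 30 min replicate 1).

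Compared per length, mt-Co1 was the most densely tagged of the 6. Its median over the 16 Cre-positive libraries was 1246 CPM per 1000 nt, and it was first of the 6 in 13 of 16 libraries. mt-Atp6 followed with 889, then mt-Atp8 with 665, mt-Co3 with 659, mt-Co2 with 653 and mt-Cytb with 576. Of these neighbours, mt-Co1 was above mt-Atp6 in 14 of 16 libraries, by a geometric mean of 1.40-fold (log2 ratio 0.49 ± 0.31, SD). The mean log2 ratios of the other neighbours were smaller than their SDs. mt-Co2 was above mt-Cytb in 14 of 16 libraries, by 1.18-fold (0.24 ± 0.30). mt-Atp6 was above mt-Atp8 in 10 of 16 libraries (log2 ratio 0.29 ± 0.72), mt-Atp8 above mt-Co3 in 9 of 16 (0.17 ± 0.81) and mt-Co3 above mt-Co2 in 5 of 16 (-0.15 ± 0.35). The 43 nt that mt-Atp8 and mt-Atp6 share weigh most on mt-Atp8, which was first in 1 library and last in 5.

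**Figure D2:**
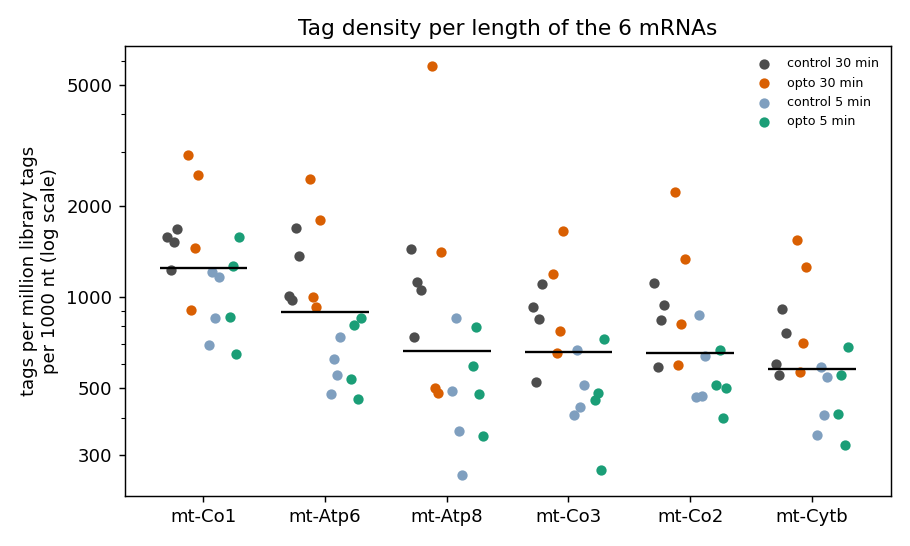
CPM per 1000 nt of the gene (log axis) in the 16 Cre-positive libraries, with points for libraries coloured by group and a black line for the median of all 16, ordered by that median. The median falls from 1246 for mt-Co1 to 576 for mt-Cytb, and mt-Atp8 has the widest spread, from 258 to 5751.

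How the 6 mRNAs were proportioned was read from their ratios in each library. Log2 ratios of 2 members without mt-Atp8 had SDs of 0.793 to 1.33 times those that the tag counts alone would give. In tags, not corrected for length, mt-Co1 made up 37.3% to 51.0% of the 6 (median 44.0%) and mt-Cytb 12.3% to 17.4% (15.9%). mt-Atp6 made up 9.94% to 19.1% (13.3%), mt-Co3 8.02% to 14.3% (11.9%), mt-Co2 7.18% to 14.0% (11.2%) and mt-Atp8 1.38% to 10.1% (3.72%). The log2 ratio of mt-Co1 to mt-Cytb had an SD of 0.17 over the 16 libraries, and the tag counts alone would give 0.22. The ratio of mt-Atp6 to mt-Cytb also varied less than counting alone would give (0.22 against 0.28). Every ratio with mt-Atp8 varied more than that, with SDs from 0.57 to 0.79 against counting SDs from 0.42 to 0.46. The variation of an mRNA between replicates of a group, as edgeR's biological coefficient of variation, was 0.241 for mt-Atp6, 0.244 for mt-Co2 and mt-Cytb, 0.254 for mt-Co3, 0.282 for mt-Co1 and 0.410 for mt-Atp8.

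Opto was set against control to ask whether activation changed FMRP tags on these mRNAs. At 30 min none of the 6 passed the test between opto and control. All 6 fitted differences were above 0, by 0.18 to 0.44 on the log2 scale, and all 6 pairs of groups overlapped, where 4.84% of all transcripts did not. Here and in the comparisons below the 6 do not count as separate observations. mt-Atp8 and mt-Atp6 lie on a shared mRNA. Ratios between members other than mt-Atp8 had SDs of only 0.793 to 1.33 times those of counting alone. edgeR's quasi-likelihood test with Benjamini-Hochberg adjustment over 2871 transcripts gave adjusted p from 0.636 to 0.885, and 0.0348% of the transcripts tested passed. mt-Cytb had the largest difference, 0.44 (SE 0.27, 95% interval -0.12 to 1.00, edgeR adjusted p = 0.636), and mt-Atp6 the smallest, 0.18 (SE 0.27, 95% interval -0.38 to 0.74, edgeR adjusted p = 0.885). The differences of the complex IV mRNAs were 0.35 (SE 0.29) for mt-Co1, 0.40 (SE 0.29) for mt-Co2 and 0.29 (SE 0.29) for mt-Co3, and that of mt-Atp8 was 0.43 (SE 0.48). The median over the 6 was 0.38, against -0.02 over all transcripts tested. None of the 6 had an unadjusted p under 0.05, which 8.39% of all transcripts did. In same-numbered pairs opto was higher in 3 of 4 for mt-Co2, mt-Co3, mt-Atp6 and mt-Cytb and in 2 of 4 for mt-Co1 and mt-Atp8.

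The direction at 30 min did not hold under every setting. The opto libraries at this time were shallower than their controls, with totals of 20456 to 121972 against 81588 to 192471. With the log2 library total as a covariate all 6 differences were below 0, at -0.16 for mt-Co1, -0.10 for mt-Co2, -0.12 for mt-Co3, -0.51 for mt-Atp8, -0.30 for mt-Atp6 and -0.0275 for mt-Cytb. Without opto 30 min replicate 1 they were 0.09, 0.06, 0.22, -0.58, -0.10 and 0.21 in the same order, so mt-Atp8 and mt-Atp6 changed sign.

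At 5 min none of the 6 passed either. Fitted differences between opto and control ran from -0.15 for mt-Co2 to 0.41 for mt-Atp8, with 4 above and 2 below 0, and all groups overlapped, where 2.19% of all transcripts did not. The adjusted p was 1 for each, and 0% of the 2871 transcripts passed in edgeR, DESeq2 or limma. In edgeR 1.85% of them had an unadjusted p under 0.05, and none of the 6 did. The 95% intervals of the 5 longer mRNAs lay between -0.74 and 0.75, and that of mt-Atp8 ran from -0.60 to 1.41. The 2 responses were also tested against each other, and 0 of 6 passed (edgeR adjusted p 0.776 to 0.999), where 0.0348% of transcripts did.

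**Figure D3:**
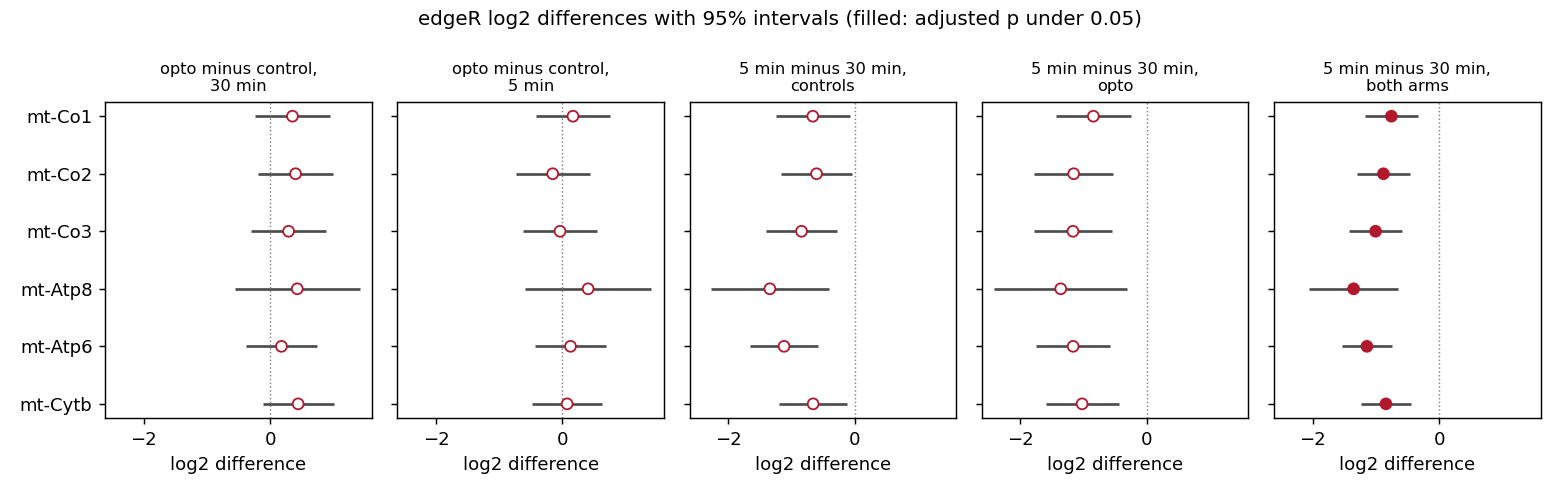
Log2 differences of the 6 mRNAs fitted by edgeR (points) with 95% intervals (lines), where a filled point has an adjusted p under 0.05. The intervals of opto against control include 0 at both times, the 5 min against 30 min differences are all below 0, and the filled points are those of both arms together.

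Fewer tags of the 6 mRNAs, relative to library total, were found at 5 min than at 30 min. Between the controls all 6 differences were below 0, from -0.60 to -1.34 on the log2 scale, and none passed after adjustment (edgeR adjusted p 0.082 to 0.489, with 0.174% of all transcripts passing). All 6 had an unadjusted p under 0.05, from 0.0002 to 0.0367, where 5.02% of transcripts were lower at that level. The largest fitted shortfall was that of mt-Atp8, -1.34 (SE 0.46, 95% interval -2.27 to -0.41, edgeR adjusted p = 0.303). That of mt-Atp6 was next, -1.12 (SE 0.26, 95% interval -1.65 to -0.58, edgeR adjusted p = 0.082). These 2 frames lie on a shared mRNA, and whether members differ from each other in the shortfall was not tested. mt-Co1, mt-Co2, mt-Co3 and mt-Cytb had -0.66 (SE 0.28), -0.60 (SE 0.28), -0.84 (SE 0.28) and -0.66 (SE 0.26). The 4 libraries of a time did not overlap those of the other for mt-Co1 and mt-Atp6, 2 of 6, and 2.72% of all transcripts were lower at 5 min in this way. Without control 30 min replicate 2 mt-Atp6 passed (-1.23, SE 0.27, edgeR adjusted p = 0.0349), with 9 of 3041 transcripts passing.

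Between the opto libraries of the 2 times the 6 differences were also below 0, from -0.85 for mt-Co1 to -1.36 for mt-Atp8. None passed, with adjusted p from 0.0654 to 0.156, and 0.244% of all transcripts did. mt-Co2, mt-Co3 and mt-Atp6 had the smallest adjusted p, 0.0654 each, at -1.16 (SE 0.30), -1.17 (SE 0.30) and -1.17 (SE 0.29), and mt-Cytb had -1.02 (SE 0.28, edgeR adjusted p = 0.07). mt-Atp6 alone did not overlap, and 2.96% of all transcripts were lower at 5 min without overlap. Without opto 30 min replicate 1 the differences ran from -0.36 (mt-Atp8) to -1.11 (mt-Co3), still with none passing. Without opto 30 min replicate 2 mt-Co2, mt-Co3, mt-Atp6 and mt-Cytb passed, with 24 of 3296 transcripts passing. Without opto 5 min replicate 4 mt-Co3, mt-Atp6 and mt-Cytb passed, with 55 of 3307 transcripts. Without opto 30 min replicate 3 mt-Atp6 passed, with 13 of 3043 transcripts. In DESeq2 and in limma voom 4 of 6 passed, with 36 and 94 of all transcripts passing.

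A contrast of both arms together, chosen after these values were seen and made from the same libraries, tested the 8 libraries of 5 min against the 8 of 30 min. All 6 mRNAs were lower at 5 min and passed, where 2.37% of all transcripts passed and 1.5% passed as lower. The fit took the libraries as independent. Same-numbered opto and control libraries of a time deviated together from their group means (correlation 0.202 to 0.689 over 334 transcripts). The p-values of this contrast may therefore be too small. In complex V mt-Atp6 had a log2 difference of -1.14 (SE 0.19, edgeR adjusted p = 0.00122) and mt-Atp8 had -1.35 (SE 0.34, edgeR adjusted p = 0.0332). In complex IV mt-Co3 had -1.005 (SE 0.21, 0.0073), mt-Co2 -0.88 (SE 0.20, 0.0198) and mt-Co1 -0.75 (SE 0.20, 0.0419), and mt-Cytb of complex III had -0.84 (SE 0.19, 0.0192). The median over the 6 was -0.94, against 0.02 over all transcripts tested. For mt-Atp6 the 8 libraries of each time did not overlap, which held for 2 of 2871 transcripts as lower at 5 min (0.0697%). Library totals ran from 40173 to 341445 at 5 min and from 20456 to 192471 at 30 min. With the log2 library total as a covariate mt-Atp6 alone passed (-0.88, SE 0.20, edgeR adjusted p = 0.0483), and the other 5 ran from -0.51 to -0.78 with adjusted p from 0.132 to 0.387. Without opto 30 min replicate 1, 4 of 6 passed, and mt-Co1 (-0.64, edgeR adjusted p = 0.0797) and mt-Atp8 (-0.85, 0.0944) did not. In that fit 55 of 3259 transcripts passed, against 68 of 2871 in the main fit. With no filter on low counts 2 of 6 passed, with 50 of 49900 transcripts passing. Without opto 30 min replicate 4, 1 of 6 passed, with 17 of 3302 transcripts. Without control 5 min replicate 1 or 3, 2 of 6 passed, with 17 of 3048 and 26 of 3313 transcripts. Without opto 5 min replicate 1 or 3, 2 of 6 also passed, with 20 of 3043 and 17 of 3015 transcripts.

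The mRNAs of complex I, which passes electrons from NADH into the chain, were read in the same fits. Between opto and control 0 of 7 passed at either time. Their differences ran from 0.09 (mt-Nd4l) to 0.67 (mt-Nd3) at 30 min and from -0.11 (mt-Nd2) to 0.43 (mt-Nd4l) at 5 min. Between the controls of the 2 times 0 of 7 passed, from -1.33 (mt-Nd6) to -0.35 (mt-Nd3). Between the opto libraries 3 of 7 were lower at 5 min and passed, mt-Nd2 at -1.87 (SE 0.34, edgeR adjusted p = 0.00874), mt-Nd4 at -1.54 (SE 0.34, 0.0401) and mt-Nd1 at -1.39 (SE 0.30, 0.0398), and mt-Nd4l had the smallest difference, -0.61. Over both arms 5 of 7 passed as lower, mt-Nd2 at -1.54, mt-Nd6 at -1.41, mt-Nd4 at -1.30, mt-Nd5 at -1.28 and mt-Nd1 at -1.21, with edgeR adjusted p from 0.000402 to 0.0073. mt-Nd4l (-0.79, adjusted p = 0.068) and mt-Nd3 (-0.65, adjusted p = 0.345) did not pass. The median of the 7 was -1.28 there, beside -0.94 for the 6 mRNAs. Of the 2 rRNAs and the 17 of 22 tRNAs that could be tested, 0 passed in any comparison of groups above. Over both arms the rRNAs had -0.08 (mt-Rnr2) and 0.03 (mt-Rnr1), and the tRNAs ran from -1.34 (mt-Tk) to 0.90 (mt-Tq). Whether the mRNAs differ from the rRNAs and tRNAs in this was not tested.

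How tags grew with library size was examined with a slope of the log2 share on the log2 library total within the 4 groups. A slope of 0 means that tags grow in proportion to the total, and a slope of -1 that they do not grow. All 6 slopes were below 0, from -0.24 for mt-Co3 to -0.54 for mt-Atp8, with an unadjusted p from 0.00478 to 0.0445, where 4.04% of all transcripts were below 0 at a p under 0.05, and an adjusted p from 0.241 to 0.579 in edgeR's test. None passed, and 0.488% of all transcripts did. The slopes of mt-Co1, mt-Co2, mt-Atp6 and mt-Cytb were -0.27 (SE 0.10), -0.29 (SE 0.10), -0.25 (SE 0.11) and -0.26 (SE 0.10). The highest tag count of an mRNA was 8.32-fold (mt-Cytb) to 13-fold (mt-Atp8) its lowest, and the highest library total was 16.7-fold the lowest. The libraries with the lowest and highest tags were not the shallowest and deepest for any of the 6. These ranges therefore do not show how tags grew with the total. Both rRNAs passed, mt-Rnr1 with -0.49 (SE 0.10, edgeR adjusted p = 0.0124) and mt-Rnr2 with -0.46 (SE 0.10, 0.0179). Of the 17 tRNAs tested 9 passed, all below 0 (mt-Tv, mt-Tl1, mt-Tm, mt-Ta, mt-Td, mt-Tk, mt-Tg, mt-Tl2 and mt-Te). The list ran from -1.003 (mt-Tk) to -0.35 (mt-Tq). Of the complex I mRNAs 0 of 7 passed, from -0.56 (mt-Nd3) to -0.12 (mt-Nd4l). The median slope was -0.27 for the 6 mRNAs, -0.35 for complex I, -0.47 for the rRNAs and -0.63 for the tRNAs, against 0.03 over all transcripts tested. Without opto 30 min replicate 1 the 6 slopes ran from -0.19 to -0.26.

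**Figure D4:**
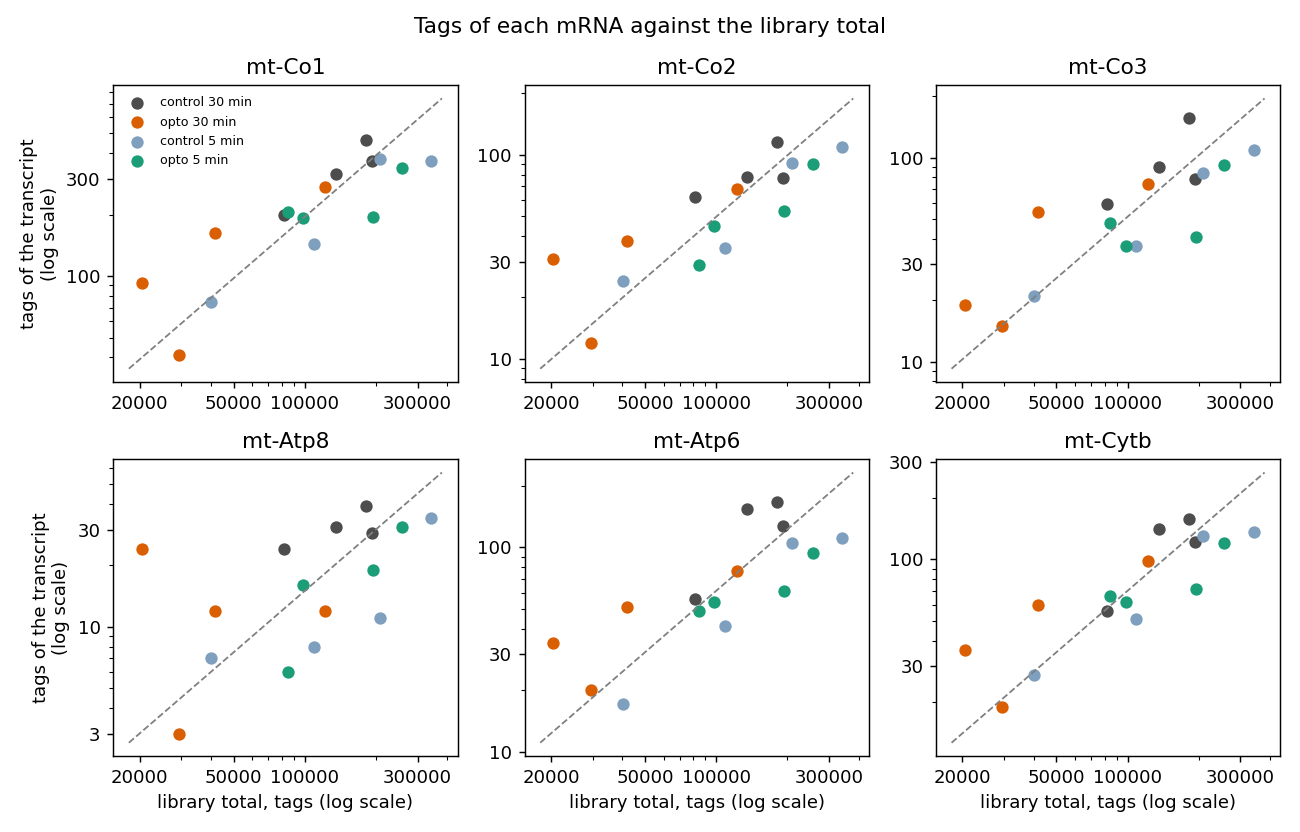
Tags of each of the 6 mRNAs against the library total (both axes logarithmic) in the 16 Cre-positive libraries, coloured by group, with a dashed line of constant share at the geometric mean share of all 16. In all 6 panels the shallowest library (20456 tags, 30 min opto) is above the line and the deepest (341445 tags, 5 min control) is below it, and the fitted slopes within groups were -0.24 to -0.54.

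The noCre libraries held 6 tags of the 6 mRNAs among 6478. mt-Co1 had 1 tag in replicate 1 and 2 in replicate 3, mt-Cytb had 2 in replicate 3, mt-Atp6 had 1 in replicate 3, and replicate 2 had none among its 34 tags. mt-Co2, mt-Co3 and mt-Atp8 had 0. At the share they had in the pooled controls the 6 mRNAs would have given 26.7 tags. Their pooled noCre share was 0.0926% (95% Wilson interval 0.0425 to 0.202%), against 0.412% in the pooled controls, and the control value is outside that interval. For mt-Co1 alone the noCre share was 0.0463% (0.0158 to 0.136%) against 0.179%, also outside, whereas for mt-Atp6 (0.0154%, 0.00273 to 0.0874%, against 0.0605%) and mt-Cytb (0.0309%, 0.00847 to 0.113%, against 0.0637%) the control share was inside. These control shares pool both times. The mt-Co1 share was 0.228% in the pooled 30 min controls and 0.1368% in those of 5 min, barely above the noCre limit of 0.1361%. Single 5 min controls ran from 0.107% to 0.187% for mt-Co1. For the 6 together the pooled 5 min share was 0.307%, still outside. For mt-Co2, mt-Co3 and mt-Atp8 a count of 0 among 6478 allows a share of up to 0.0463% by the limit of 3 tags and up to 0.0593% by the Wilson interval. Their control shares were 0.0459%, 0.0492% and 0.0142%. All were inside the Wilson interval, so by that interval a lower share in noCre was not detectable at this depth. By the limit of 3 tags the control share of mt-Co3 was outside and the others were inside. In a test over libraries 0 of 6 passed (edgeR adjusted p 0.632 to 0.637). At an unadjusted p under 0.05, 3 of 6 were lower (mt-Co1, mt-Co2 and mt-Co3), as were 3.33% of all transcripts. Over all 2759 transcripts tested 0.652% passed, 0 of them as lower in noCre. With TMM scaling, which rests on very few tags in these libraries, 5 of 6 passed as lower, as did 474 of all transcripts. In tags per library, the mean over noCre was 0.301% of the mean over the 8 controls for the 6 mRNAs together, at 2 against 665 tags. All tags together numbered 6478 in the 3 noCre libraries and 1290149 in the 8 controls. The percentage therefore also carries this difference in library totals.

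The transcripts whose tags followed the sum of the 6 most closely were listed by the SD of the log2 ratio over the 16 Cre-positive libraries, among 2865. The 4 closest were ENSMUST00000117219 (SD 0.18), ENSMUST00000187117 (0.22), ENSMUST00000189941 (0.22) and mt-Nd1 (0.22), and the median over all was 0.84. Counting error of the listed transcript alone would give 0.18, 0.20, 0.21 and 0.22. These values leave out the counting error of the sum of the 6. Among complex I mRNAs mt-Nd4 was 7th, mt-Nd5 9th, mt-Nd6 13th, mt-Nd2 24th and mt-Nd4l 61st, and mt-Nd3 was 1430th.

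Several transcripts outside the 37 mitochondrial ones had nearly the counts of single members. The nuclear genome of the mouse carries copies of stretches of mitochondrial DNA, some of them almost identical to their source, and tags that match both cannot be told apart. Which genes these transcripts belong to is not given in the sources used here. ENSMUST00000188231 had 949 tags against 958 for mt-Co2 over the 16 libraries (99.1%), with the same count in 9 of 16 libraries and at most 3 tags apart in the rest. ENSMUST00000190277 had 1001 tags against 1015 for mt-Co3 (98.6%), with the same count in 8 of 16 and at most 4 tags apart. ENSMUST00000189941 had 1175 against 1221 for mt-Atp6 (96.2%), with the same count in 2 of 16 and at most 9 tags apart. In no library did any of these exceed its member. The closest to mt-Co1, ENSMUST00000117219, had 1573 tags against 3805 (41.3%), with the same count in 0 of 16 libraries. Its log2 ratio to mt-Co1 had an SD of 0.16, near that of mt-Co1 to mt-Cytb (0.17). For mt-Atp8 and mt-Cytb the SD to the closest transcript was 0.53 and 0.22, against 0.01, 0.02 and 0.04 for mt-Co2, mt-Co3 and mt-Atp6. An SD under 0.1 was found for 3 of the 6 mRNAs and for 1 of 7 complex I mRNAs, mt-Nd3. These partners were looked for after the likeness list was seen. The counts of mt-Co2, mt-Co3 and mt-Atp6 are uncertain for this reason, and so are all comparisons made with them. ENSMUST00000117219 was above mt-Co1 in 0 of 16 libraries, and mt-Co1 and its place in the order per length are not shown to be free of this. Whether any tags were counted for both transcripts of a pair was not tested.

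**Figure D5:**
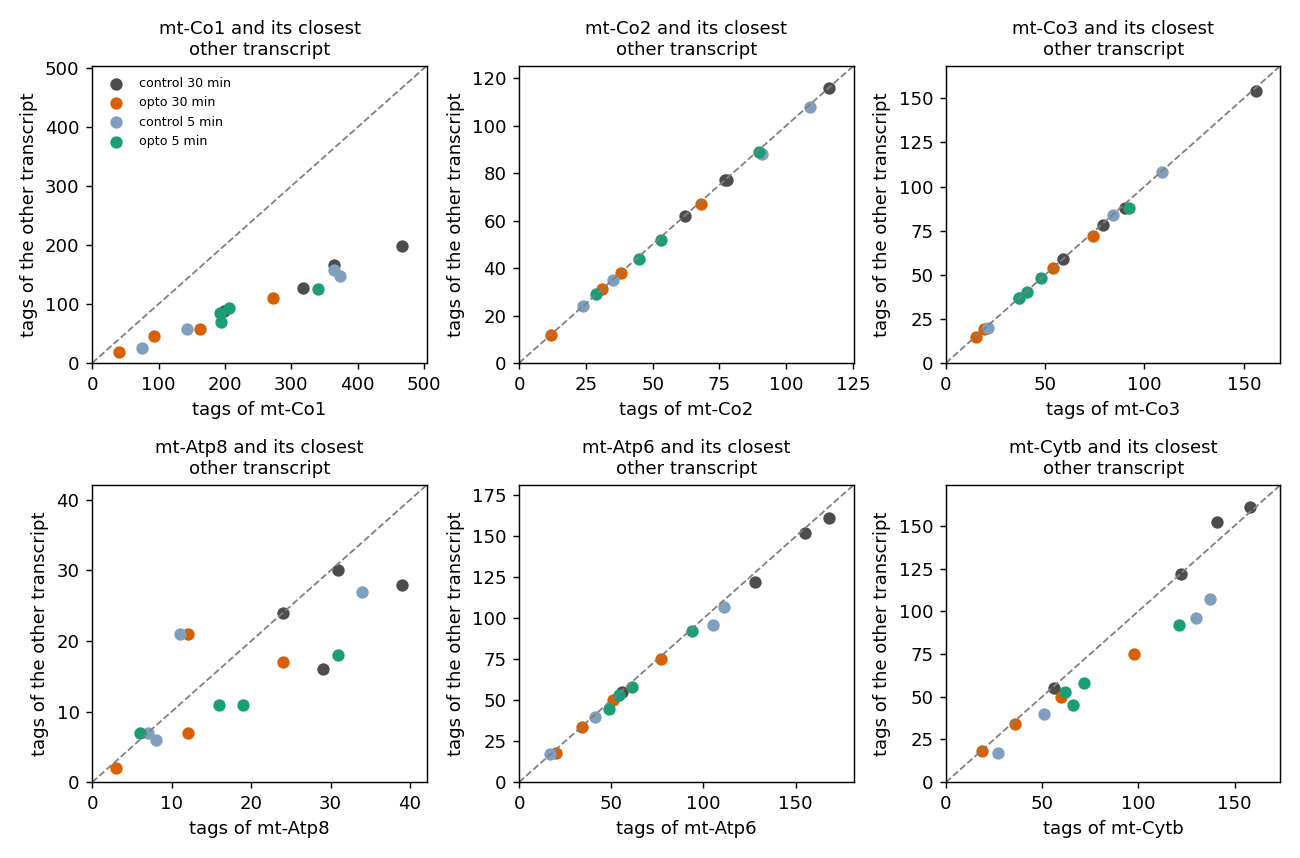
Tags of the closest transcript outside the 37 mitochondrial ones against the tags of each of the 6 mRNAs in the 16 Cre-positive libraries (linear axes), coloured by group, with a dashed line where both are equal. Points for mt-Co2, mt-Co3 and mt-Atp6 are on or just below the line, those for mt-Co1 are at 41.3% of it over all libraries, and those for mt-Atp8 and mt-Cytb scatter.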

How the data were processed

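FMRP CLIP was measured in 19 libraries, of which 16 were Cre-positive and 3 noCre. Each library has a deposited file of raw tag counts by transcript, named so per the file headers and not normalized. Transcripts that it leaves out were taken as 0. Adapter trimming with cutadapt, alignment with STAR and the build mm10 are named in the submitters' processing notes, while the annotation, the handling of duplicates and the treatment of tags that match several places are not given in the sources used here. Duplicate tags and tags shared between transcripts would change the counts.

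Counts were tested with edgeR 4.0.16 (R 4.3.3): TMM scaling, the default filterByExpr filter, and the quasi-likelihood test in 1 model of 4 group means over the 16 Cre-positive libraries. 2871 transcripts were tested, all 6 members among them, and p was Benjamini-Hochberg adjusted over all of them, with 0.05 as the threshold. Their part of a library's tags was 64.8% to 70.9%, TMM factors ran from 0.934 to 1.07 and the common biological coefficient of variation was 0.192. The slope on library total and the noCre comparison (19 libraries, 2759 transcripts) used library totals as offsets without TMM. Shares have 95% Wilson intervals, and a count of 0 was taken to allow up to 3 tags. Log2 ratios between transcripts had 0.5 added to both counts, except those of levels per length and of opto to control, which had nothing added. The fitting code was tested on simulated counts. Python 3.11.15 with pandas 2.3.3, numpy 2.4.6, scipy 1.17.1 and matplotlib 3.10.9 was used for tables and plots.

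The members and lists were chosen with earlier results of these data known. All 6 members are named. Of the 31 other mitochondrial transcripts (7 complex I mRNAs, 2 rRNAs and 22 tRNAs), those that passed a test are named. The ends of a list are named where its range is given. The 4 transcripts most like the sum of the members are named with no test. The files give transcript IDs only. Symbols of the 31 were paired with their IDs from general knowledge of the Ensembl annotation, since no table used here pairs them, and positions were matched by symbol in a RefSeq table of GRCm38.p6. For the same reason markers of other cell types could not be read, so the labelled cell type was not checked.

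Labels do not say that replicates came from separate animals, so p-values measure the spread between these libraries, which may be technical. Same-numbered opto and control libraries deviated together from their group means in all 8 pairs (correlation 0.202 to 0.689 over 334 transcripts that averaged 50 tags or more, and 0.0915 to 0.332 over all 2871, with 2 under 0.1), and control libraries of the 2 times did not in every pair (-0.391 to 0.298). The main model has no pairing, and the replicate block is an alternative. Alternatives were other scalings (library totals, DESeq2 size factors, scaling without mitochondrial transcripts), filters (no filter, or at least 20 tags on average), voom from limma 3.58.1 with quality weights, DESeq2 1.42.0, the library total as a covariate, the replicate block, a fit restricted to the contrast's own libraries, and leaving out each library. The contrast over both arms and the search for transcripts with like counts were chosen after the data were seen.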

Additional observations from a re-analysis of the deposited data

How the results depend on the processing

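Depth limits mt-Atp8 most, with 3 to 39 tags in a Cre-positive library, and noCre throughout. Of the 6 mRNAs, 0 passed between opto and control at 30 min, at 5 min and in the difference of these under every alternative run, the replicate block included. The sign at 30 min did not hold for every mRNA. With no filter it was -0.0335 for mt-Co1, -0.0452 for mt-Co3 and -0.19 for mt-Atp6, and in limma voom -0.43 for mt-Atp8 and -0.0317 for mt-Atp6. With the library total as a covariate it was -0.16, -0.10, -0.12, -0.51, -0.30 and -0.0275 for mt-Co1, mt-Co2, mt-Co3, mt-Atp8, mt-Atp6 and mt-Cytb. Leaving out each library in turn gave -0.0689 to 0.45 for mt-Co3, -0.58 to 1.03 for mt-Atp8 and -0.10 to 0.40 for mt-Atp6 at 30 min, and at 5 min -0.0676 to 0.36 for mt-Co1, -0.27 to 0.19 for mt-Co3, -0.0102 to 0.29 for mt-Atp6 and -0.11 to 0.25 for mt-Cytb. The cause of these changes was not tested.

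All differences between the times, and all slopes, stayed below 0 for each of the 6 under the alternatives run, while the number passing moved. Between the controls it was 0 in the main setting, 1 with the library total as a covariate, 1 with the replicate block (mt-Atp6, adjusted p = 0.0335), 1 with the libraries of the contrast alone, 2 in voom and 0 to 1 without single libraries. Between the opto libraries it was 0, and 3 with the replicate block (mt-Co2, mt-Co3 and mt-Atp6, edgeR adjusted p from 0.037 to 0.044), 4 in DESeq2, 4 in voom and 0 to 4 without single libraries. Numbers do not pair libraries across times. Over both arms it was 6, and 2 with no filter, 1 with the covariate, 6 with the replicate block (with 76 of 2871 transcripts passing) and 1 to 6 without single libraries. The block of this contrast was by number across both times, so the likeness of same-numbered libraries within a time was not modelled. With a mean of at least 20 tags it was 4 of 5, with mt-Atp8 left out. For the slope it was 0, and 1 with no filter, 4 with no group terms and 0 without single libraries. Against noCre it was 0, and 5 with TMM. The slope of mt-Atp8 itself ran from -1.05 to -0.10 over the alternatives, which include fits within the libraries of each time. Slopes of the other 5 stayed between -0.41 (mt-Co2) and -0.18 (mt-Atp6).

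Over all transcripts the replicate block moved the number passing from 1 to 9 at 30 min, from 1 to 5 for the difference of the responses, from 5 to 8 between the controls, from 7 to 24 between the opto libraries and from 68 to 76 over both arms. It changed no call of the 6 between opto and control. The covariate gave 0 at 30 min, 2 for the difference of the responses, 9 between the controls, 0 between the opto libraries and 5 over both arms. Between the controls 3 passed with library totals, DESeq2 size factors, a mean of at least 20 tags or DESeq2, 13 in voom and 18 with the contrast alone. Between the opto libraries 42 passed with no filter, 2 with a mean of at least 20 tags, 14 with the contrast alone, 36 in DESeq2 and 94 in voom. Over both arms 68 passed, and 33 with a mean of at least 20 tags and 291 in voom. For the slope 14 passed, and 34 with no filter, 74 with no group terms and 7 in the 30 min libraries alone. Against noCre 18 passed, and 32 with no filter and 478 with TMM. Without single libraries 0 to 4 passed at 30 min, 1 to 9 between the controls, 0 to 55 between the opto libraries, 17 to 145 over both arms, 3 to 26 for the slope and 0 to 33 against noCre.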
